A study of Mus musculus with 22 samples.

Results

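Rab proteins are small GTPases that sit on the membranes of the cell and decide which vesicle is moved, tethered and fused with which compartment. Members were taken as every gene whose symbol is Rab followed by a number, with or without a letter, which gave 50 of the 12596 genes in the deposited table. The choice went by symbol alone, among the genes that the filter of the deposited table had kept. It was made with earlier results of these data known. Rab32 and Rab38 of pigment granules would meet this description but were not in the deposited table, so they could not be examined.

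A Rab protein is switched on when an exchange factor loads it with GTP, and it then binds effectors such as motors and tethers. A GTPase-activating protein switches it off, and an escort protein hands it to the enzyme that attaches its lipid anchor. Neurons use Rab3 and Rab27 proteins on secretory vesicles, Rab5 and Rab11 proteins on endosomes in axons and dendrites, and Rab1 and Rab2 proteins between the endoplasmic reticulum and the Golgi. Rab27a is best known for tying pigment granules to the motor myosin Va. Rab8a, Rab10, Rab12, Rab29 and Rab35 are among the known substrates of the Parkinson disease kinase LRRK2.

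RNA was sequenced from 11 mice on a C57Bl/6 background, a cross of Th-cre with Slc6a2-eGFP/Rpl10a, in which ribosomes of cells using the noradrenaline transporter gene carry a green fluorescent tag. All groups carried both transgenes, Th-cre driving the recombinase in catecholamine cells. In 5 animals hTyr, human tyrosinase, the enzyme that starts melanin synthesis, was infused, and in 6 animals EYFP, a fluorescent protein, was infused as the control. Each animal gave an immunoprecipitated library of ribosome-bound RNA (IP), labelled noradrenergic, and a library of the RNA going into that step (input), labelled total hindbrain. Animals are numbered here within each treatment in the order of the numbers in the titles, and values of hTyr animals always follow that order. Age, dose and time after infusion are not given in the sources used here.

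The table held between 12654489 and 25100142 reads per library, and the members had 50 to 32578 reads per library. Of 13 noradrenergic marker genes, 11 were higher in IP in EYFP animals and 12 in hTyr animals, and their mean log2 CPM was 5.32 to 6.84 in the IP libraries against 3.63 to 3.95 in input. The IP libraries still held glial RNA. The mean log2 CPM of 10 oligodendrocyte markers was 8.34 to 8.68 in IP and 8.55 to 8.93 in input, with 6 lower and 1 higher in IP in EYFP animals. That of 10 astrocyte markers was 7.20 to 7.74 in IP and 7.07 to 7.41 in input, with 5 higher and 2 lower. The lowest count of any oligodendrocyte or astrocyte marker in a library was 280 reads. Of 10 microglial markers 1 was higher and 1 lower in IP in EYFP animals, of 5 endothelial markers none passed there, and of 9 markers of other neurons 7 were higher. In hTyr animals 2 oligodendrocyte markers were higher and 6 lower, 6 astrocyte markers higher and 2 lower, 1 microglial marker higher and 1 lower, and 6 markers of other neurons higher. Of the 5 endothelial markers, 2 were higher in IP in hTyr animals, with a median change of 0.40 on the log2 scale over the list. The part of these markers in the results on Rab genes was not tested. A fit with a glial score is given beside the counts, but this score averages the oligodendrocyte, astrocyte and microglial markers together. From input to IP in EYFP animals, the mean fell from 8.68 to 8.48 for oligodendrocyte markers and rose from 7.27 to 7.51 for astrocyte markers. Such opposite moves offset each other in the score, so the fit cannot adjust for either list.

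Before the values, 5 promoters are shown because their genes carry the clearest results: Rab3b rose most in IP, and the closely related Rab5a and Rab5b, and Rab11a and Rab11b, moved apart. Each window runs from 250 bases before to 50 bases after the start of the gene in RefSeq on GRCm38.p6, the build that corresponds to mm10, and is written along the strand of the gene. Capitals mark matches on either strand to the Sp1 box GGGCGG, the E-box CACGTG, the cAMP response element TGACGTCA and the TATA box TATAAA. Matches may overlap, as with the adjoining Sp1 boxes of Rab3b. Rab3b lies at chr4:108878820-108879119 on the plus strand, Rab5a at chr17:53478984-53479283 on the plus strand and Rab5b at chr10:128696219-128696518 on the minus strand. Rab11a lies at chr9:64737707-64738006 and Rab11b at chr17:33760437-33760736, both on the minus strand.
Rab3b: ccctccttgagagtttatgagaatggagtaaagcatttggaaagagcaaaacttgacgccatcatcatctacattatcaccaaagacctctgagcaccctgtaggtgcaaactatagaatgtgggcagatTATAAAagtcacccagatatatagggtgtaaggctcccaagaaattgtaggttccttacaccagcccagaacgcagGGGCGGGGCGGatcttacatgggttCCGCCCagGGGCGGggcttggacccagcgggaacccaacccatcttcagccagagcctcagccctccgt
Rab5a: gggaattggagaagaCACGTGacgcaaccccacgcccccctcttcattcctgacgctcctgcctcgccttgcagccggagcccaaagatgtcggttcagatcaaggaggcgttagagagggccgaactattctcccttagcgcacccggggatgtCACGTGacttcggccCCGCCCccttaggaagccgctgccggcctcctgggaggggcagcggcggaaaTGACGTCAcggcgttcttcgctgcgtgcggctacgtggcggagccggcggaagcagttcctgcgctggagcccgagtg
Rab5b: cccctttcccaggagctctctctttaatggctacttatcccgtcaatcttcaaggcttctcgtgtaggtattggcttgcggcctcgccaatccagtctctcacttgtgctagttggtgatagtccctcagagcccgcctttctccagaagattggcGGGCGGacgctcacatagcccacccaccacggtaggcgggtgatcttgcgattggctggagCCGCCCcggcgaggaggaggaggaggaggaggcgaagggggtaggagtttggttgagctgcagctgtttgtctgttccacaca
Rab11a: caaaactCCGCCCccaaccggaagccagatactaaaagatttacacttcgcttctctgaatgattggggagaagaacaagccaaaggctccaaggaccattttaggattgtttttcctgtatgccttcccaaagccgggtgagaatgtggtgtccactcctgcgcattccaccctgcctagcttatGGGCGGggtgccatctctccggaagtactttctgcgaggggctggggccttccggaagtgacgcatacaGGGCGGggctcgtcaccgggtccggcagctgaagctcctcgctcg
Rab11b: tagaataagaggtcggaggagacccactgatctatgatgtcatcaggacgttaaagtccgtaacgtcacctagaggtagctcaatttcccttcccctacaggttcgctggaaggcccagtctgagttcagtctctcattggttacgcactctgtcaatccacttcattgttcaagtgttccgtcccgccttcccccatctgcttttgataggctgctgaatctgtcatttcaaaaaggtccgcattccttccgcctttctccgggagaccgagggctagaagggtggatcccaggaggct

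The Rab3b window held 4 Sp1 boxes and 1 TATA box, and the Rab5a window held 1 Sp1 box, 2 E-boxes and 1 cAMP response element. Rab5b had 2 Sp1 boxes, Rab11a had 3, and in the Rab11b window none of these letters occurred. Windows were found for 42 of the 50 members, 54 windows in all since some genes have several starts. An Sp1 box occurred in 72.2% of the member windows and in 35.7% of the 32851 windows of the same length in the table, with a median GC content of 61.7% against 52.7%. The E-box occurred in 9.26% against 7.15%, the cAMP response element in 1.85% against 1.79% and the TATA box in 7.41% against 13.6%. These matches describe the windows and show no binding.

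Levels were compared between genes as CPM per kilobase of exon in the 6 EYFP IP libraries. Rab3a, the main Rab protein of synaptic vesicles, stood at 686 ± 34.3 (SD, n = 6) and did not overlap with the next gene. It was followed by Rab2a (191 ± 10.9) of the Golgi, Rab7 (172 ± 9.67) of late endosomes, Rab6b (166 ± 18.0) and Rab6a (164 ± 18.0) of the Golgi, each overlapping with its neighbour in the order. Rab6a did not overlap with the sixth gene, Rab1b (112 ± 7.29). The lowest levels per kilobase were those of Rab27b (4.76 ± 0.737), Rab40b (4.65 ± 2.0), Rab30 (3.26 ± 0.362), Rab43 (3.15 ± 0.393) and Rab3d (1.87 ± 0.523), which overlapped in sequence.

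**Figure D1:**
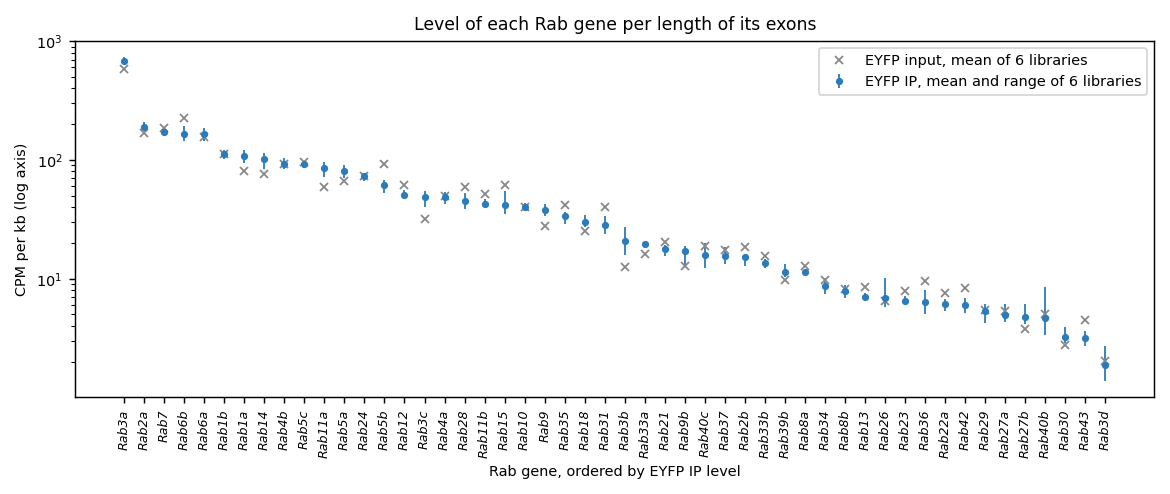
Level of each of the 50 Rab genes in CPM per kilobase of exon on a log axis, with blue points and bars for the mean and range of the 6 EYFP IP libraries and crosses for the mean of the 6 EYFP input libraries. Rab3a stands alone at 686, and the other genes spread from 191 down to 1.87 with few gaps.

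IP against input shows which Rab RNAs made up a larger or smaller share of the IP library than of the input library. The IP libraries still held glial RNA, so a change is not a measure of the tagged ribosomes alone. Rab genes divided rather than moving together: Rab3b, Rab3c, Rab11a, Rab1a, Rab9, Rab9b and Rab14 were higher in IP, and Rab36, Rab15, Rab5b, Rab43, Rab31 and Rab6b were lower. In EYFP animals, 32 of 50 members passed the threshold of 0.05 for limma's adjusted p (Benjamini-Hochberg over all genes), 14 higher and 18 lower. Among all genes 56.5% passed, 28.5% higher and 28.1% lower. In hTyr animals, 26 members passed, 14 higher and 12 lower, against 54.4% of all genes, 27.4% higher and 27.0% lower. The share of members called was thus near the background. Their median log2 change was -0.08 in both treatments, beside -0.03 for all genes in EYFP animals and -0.04 in hTyr animals. With the animal as a block, 35 members passed in EYFP animals (64.6% of all genes) and 29 in hTyr animals (59.1%). With the glial score in the fit, 33 and 26 passed (57.6% and 56.3% of all genes). Since this score averages lists that moved in opposite directions, these counts do not show what part glial RNA had.

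The split of the calls changed when a trend of each library on exon length and GC content was removed. After this removal 9 members were higher and 20 lower in EYFP animals, beside 28.9% and 26.5% of all genes with a value. In hTyr animals 10 were higher and 16 lower, beside 28.0% and 23.7%. Median centring of the libraries gave 11 higher and 20 lower in EYFP animals, beside 25.2% and 33.6% of all genes. In hTyr animals it gave 12 higher and 17 lower, beside 24.0% and 33.1%. Quantile normalization gave 11 higher and 19 lower in EYFP animals (26.1% and 31.1%), and 13 and 16 in hTyr animals (25.4% and 30.9%). In the sentences that follow, a value "after removal" is the log2 change once the length and GC trend was taken out.

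The EYFP and hTyr comparisons used separate animals, and 23 members passed in both, 12 higher and 11 lower, with the same direction in each. Among all genes 46.3% passed in both, 24.2% higher in both and 22.1% lower in both. Another 9 passed in EYFP animals alone, 3 in hTyr animals alone, and 15 in neither. A call in 1 treatment alone does not show a difference between treatments. Of those called in EYFP animals alone, Rab2b, Rab21, Rab23 and Rab33b passed as lower in both treatments after removal, and Rab3a as higher. Rab8a, Rab13, Rab33a and Rab42 did not pass in both after removal. Of the 50 members, 11 were higher in IP in every one of the 11 animals and 12 were lower in every one, beside 22.8% and 21.4% of all genes. The IP and input values did not overlap for 21 members in EYFP animals and for 20 in hTyr animals, beside 30.1% and 37.5% of all genes. The spread of the IP minus input differences over the 50 members differed between animals, from an SD of 0.27 in EYFP animal 5 to 0.54 in hTyr animal 1. These animals also had the lowest and highest rise of the noradrenergic markers, 1.45 and 2.99 on the log2 scale. EYFP animal 4 had an SD of 0.47 with a rise of 1.56.

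**Figure D2:**
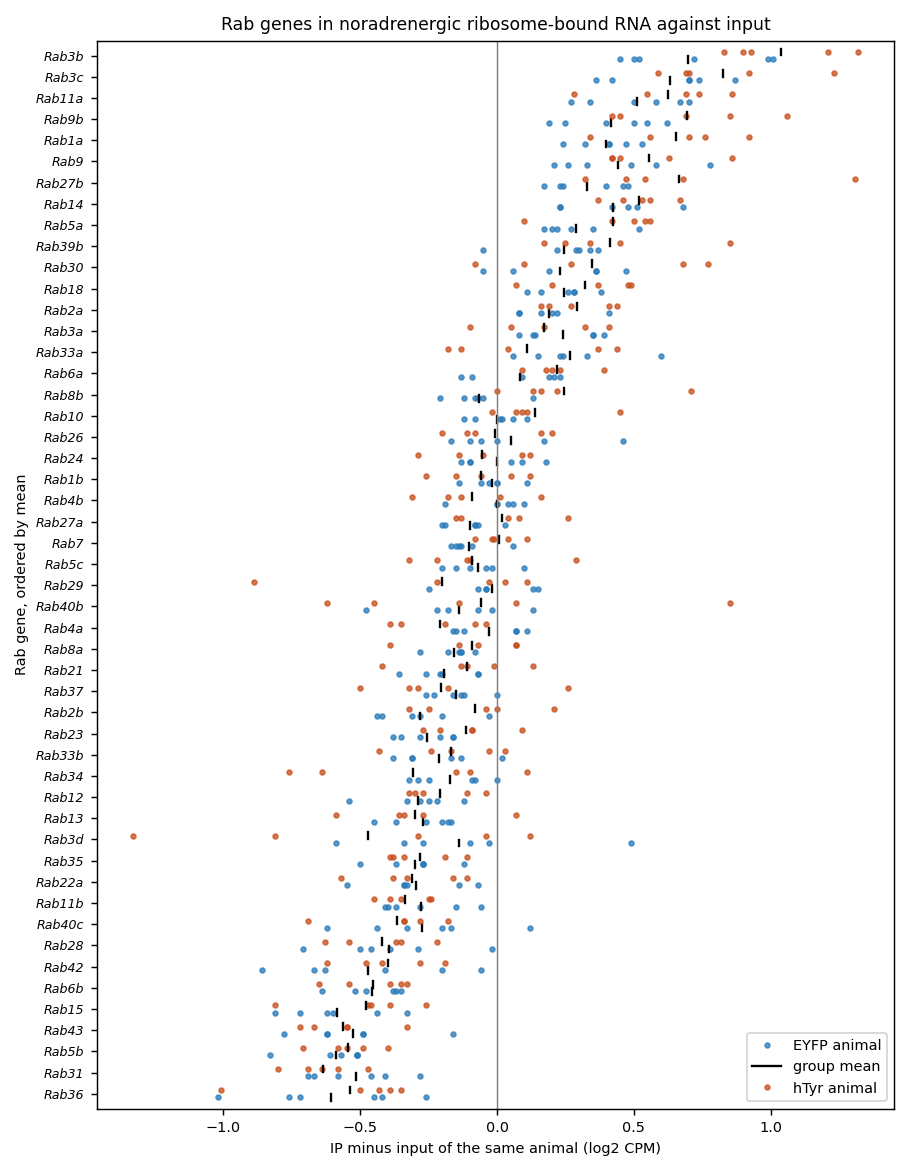
Difference between IP and input of the same animal in log2 CPM (x axis) for each of the 50 Rab genes (rows, ordered by mean), with blue points for the 6 EYFP animals, orange points for the 5 hTyr animals and black ticks for group means. Rab3b and Rab3c lie to the right of 0 in every animal, and Rab31, Rab5b and Rab36 to the left in every animal.

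Among the Rab proteins of regulated secretion and synaptic vesicles, 4 of 8 rose in EYFP animals (Rab3a, Rab3b, Rab3c and Rab27b), 3 of 8 in hTyr animals, and none fell. Rab3b had the largest rise of all members. Its log2 CPM in EYFP animals was 5.24 at the lowest, 5.39 at the median and 5.60 at the highest in input, and 5.74, 6.06 and 6.53 in IP. In hTyr animals it was 5.81, 5.49, 5.05, 5.44 and 5.46 in input of hTyr animals 1 to 5, and 7.13, 6.70, 5.95, 6.37 and 6.29 in IP. The IP values lay above all input values in both treatments, and hTyr animal 1 was the highest in both fractions of the hTyr group. The change was 0.70 ± 0.11 (log2, SE) in EYFP animals, a 1.62-fold rise (limma, adjusted p = 8.36e-05), and 1.04 ± 0.17 in hTyr animals, a 2.05-fold rise (adjusted p = 0.000102). After removal it was 0.73 and 1.05.

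Rab3c, a close relative on the same kind of vesicle, lay at 7.79, 8.11 and 8.50 (lowest, median, highest) in EYFP input and at 8.49, 8.84 and 8.94 in EYFP IP, which overlap slightly. In hTyr animals its input values were 7.51, 7.98, 7.71, 8.04 and 8.11 and its IP values 8.74, 8.68, 8.63, 8.73 and 8.69. The IP values of the hTyr group were nearly equal, while its input values were spread. Rab3c rose by 0.63 ± 0.11 in EYFP animals and 0.83 ± 0.10 in hTyr animals, and after removal by 0.31 and 0.38. Rab3a rose by 0.24 ± 0.07 in EYFP animals, and in hTyr animals its change was 0.17 ± 0.10 (limma, adjusted p = 0.14). After removal it was 0.30 in each (adjusted p = 0.00332 in hTyr animals). Rab3d, the lowest member per kilobase, had changes of -0.14 ± 0.18 and -0.47 ± 0.23 (adjusted p = 0.0918, and 0.0476 with the animal as a block). With the block and the removal together the hTyr value of Rab3d was -0.30 and did not pass (limma, adjusted p = 0.212).

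Rab27b, which with Rab27a acts in the docking of secretory and lysosome-related granules, had 4.54, 4.81 and 5.05 (lowest, median, highest) in EYFP input and 4.97, 5.11 and 5.53 in EYFP IP. In hTyr animals it had 4.43, 4.65, 4.66, 5.0 and 4.82 in input and 5.74, 5.19, 5.35, 5.32 and 5.29 in IP. hTyr animal 1 had the lowest input value and the highest IP value of the hTyr group. Its rise of 0.33 ± 0.10 in EYFP animals and 0.66 ± 0.12 in hTyr animals turned to -0.17 and -0.02 after removal, and no longer passed (limma, adjusted p = 0.0967 and 0.861). With the animal as a block as well, the EYFP value of -0.17 passed as a fall (adjusted p = 0.0382). Its transcript has a GC content of 37.9%. Rab27a, the form tied to pigment granules, had changes of -0.10 ± 0.10 in EYFP animals and 0.02 ± 0.11 in hTyr animals, and its IP values ranged only from 3.96 to 4.06 in the hTyr group. Of the others with this role, Rab26 and Rab37 did not pass in either treatment, except Rab37 with the animal as a block in EYFP animals (-0.15, adjusted p = 0.0468), a call lost when the removal was added (-0.06, adjusted p = 0.357).

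**Figure D3:**
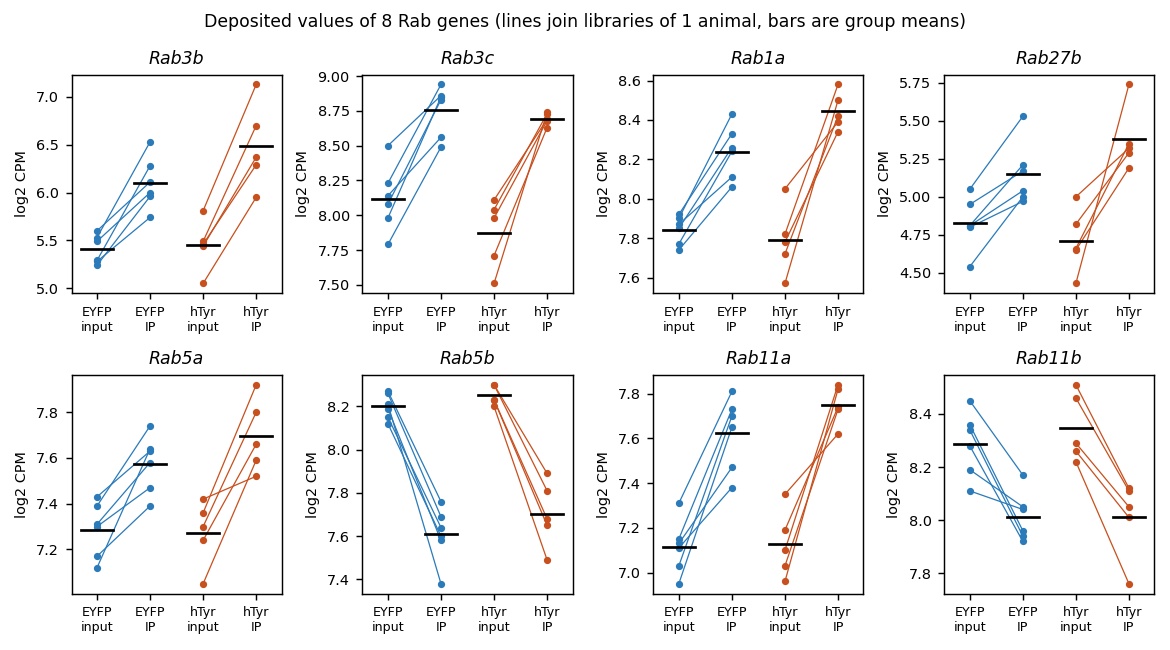
Deposited log2 CPM of 8 Rab genes (y axes with separate scales), with points for libraries, lines joining the 2 libraries of an animal and black bars for the means of the 4 groups on the x axis (6 EYFP and 5 hTyr animals). Lines rise from input to IP for Rab3b, Rab3c, Rab1a, Rab27b, Rab5a and Rab11a, and fall for Rab5b and Rab11b.

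Of 14 Rab genes of the endoplasmic reticulum and Golgi, 5 rose and 5 fell in EYFP animals, and 6 rose and 3 fell in hTyr animals. Rab1a, needed for transport from the endoplasmic reticulum to the Golgi, had 7.74, 7.86 and 7.92 (lowest, median, highest) in EYFP input and 8.06, 8.25 and 8.43 in EYFP IP. Its hTyr input values were 7.57, 7.72, 7.78, 7.82 and 8.05, and its hTyr IP values were 8.50, 8.42, 8.34, 8.58 and 8.39. Fractions did not overlap in either treatment. Rab1a rose by 0.40 ± 0.07 in EYFP animals (limma, adjusted p = 0.000157) and 0.66 ± 0.09 in hTyr animals (adjusted p = 1.41e-05), or 0.20 and 0.36 after removal.

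Rab36, a Golgi Rab linked to the placement of lysosomes, fell by 0.60 ± 0.11 and 0.54 ± 0.13 on the log2 scale in EYFP and hTyr animals, and Rab43 fell by 0.53 ± 0.09 and 0.57 ± 0.10. Rab6b, a form abundant in neurons that acts in transport from the Golgi, fell by 0.46 ± 0.08 and 0.45 ± 0.10. All of these falls passed after removal as well, with smaller sizes: -0.45 and -0.34 for Rab36, -0.30 and -0.26 for Rab43, and -0.34 and -0.32 for Rab6b. Rab39b, mutated in an inherited parkinsonism, rose by 0.24 ± 0.09 and 0.41 ± 0.10, but after removal had -0.05 and -0.02 with an adjusted p of 0.561 and 0.881. Its EYFP call was also lost under median centring (0.19, adjusted p = 0.0604), under quantile normalization (0.20, adjusted p = 0.0589) and without EYFP animal 1, 4 or 6.

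Rab30, Rab18 and Rab1b changed direction with the removal and are named for that reason, after their values were seen. Rab30 had 0.35 ± 0.14 in hTyr animals (limma, adjusted p = 0.0415) and -0.35 after removal (adjusted p = 0.00918). In EYFP animals Rab30 had 0.23 ± 0.10 (adjusted p = 0.0523, and 0.016 with the animal as a block) and -0.27 after removal (adjusted p = 0.00195). Rab18, found at the endoplasmic reticulum and on lipid droplets, had 0.32 ± 0.09 in hTyr animals and -0.23 after removal (adjusted p = 0.0236). In EYFP animals Rab18 rose by 0.24, and had -0.15 after removal (adjusted p = 0.111, and 0.0173 with the block). Rab1b had -0.06 in hTyr animals and passed as higher after removal with 0.16 (limma, adjusted p = 0.0416). The rise of Rab6a in hTyr animals, 0.22, was 0.01 after removal (limma, adjusted p = 0.904). Rab2a rose by 0.19 in EYFP animals and by 0.29 in hTyr animals. After removal Rab2a had 0.10 and 0.15 and did not pass (limma, adjusted p = 0.196 and 0.0934). With the animal as a block added, it passed in hTyr animals (limma, adjusted p = 0.0328) and not in EYFP animals (adjusted p = 0.113).

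Of 6 early endosome members, Rab5a rose in both treatments, while 4 fell in EYFP animals (Rab5b, Rab21, Rab22a and Rab31) and 3 in hTyr animals. Rab5b, which like Rab5a drives the fusion of early endosomes, had 8.12, 8.20 and 8.27 (lowest, median, highest) in EYFP input and 7.38, 7.62 and 7.76 in EYFP IP. In hTyr animals it had 8.30, 8.30, 8.23, 8.20 and 8.23 in input and 7.89, 7.81, 7.65, 7.49 and 7.68 in IP. Input values were tightly grouped, and all IP values lay below them. Rab5b fell by 0.59 ± 0.07 in EYFP animals (limma, adjusted p = 3.84e-06) and 0.55 ± 0.08 in hTyr animals (adjusted p = 3.88e-05), and by 0.57 and 0.54 after removal.

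Rab5a had 7.12, 7.30 and 7.43 in EYFP input and 7.39, 7.60 and 7.74 in EYFP IP. In hTyr animals it had 7.05, 7.30, 7.24, 7.36 and 7.42 in input and 7.59, 7.80, 7.66, 7.92 and 7.52 in IP. Groups overlapped in EYFP animals and not in hTyr animals. The rise was 0.29 ± 0.07 and 0.42 ± 0.09, and 0.24 and 0.35 after removal. Rab31, which acts between the Golgi and endosomes, had 7.18, 7.27 and 7.31 in EYFP input and 6.51, 6.75 and 7.02 in EYFP IP. In hTyr animals it had 7.39, 7.34, 7.27, 7.35 and 7.33 in input and 6.59, 6.70, 6.79, 6.65 and 6.75 in IP. It fell by 0.51 ± 0.08 and 0.64 ± 0.07 (limma, adjusted p = 2.03e-06 in hTyr animals), with no overlap in either treatment. Rab5c had -0.07 ± 0.06 and -0.09 ± 0.09 and did not pass.

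Of 11 Rab genes of recycling and transport to the plasma membrane, Rab11a and Rab14 rose in both treatments, while 5 fell in EYFP animals and 3 in hTyr animals. Rab11a, the Rab of recycling endosomes, had 6.95, 7.12 and 7.31 (lowest, median, highest) in EYFP input and 7.38, 7.68 and 7.81 in EYFP IP. In hTyr animals it had 6.96, 7.19, 7.03, 7.10 and 7.35 in input and 7.82, 7.74, 7.73, 7.84 and 7.62 in IP. It rose by 0.51 ± 0.08 and 0.62 ± 0.09 without overlap, or 0.26 and 0.28 after removal. Rab14, which moves cargo between the Golgi and endosomes, rose by 0.42 ± 0.09 and 0.52 ± 0.09, and by 0.25 in each treatment after removal. Rab15, a neuron-rich Rab of endosome recycling, fell by 0.59 ± 0.10 and 0.48 ± 0.12. The hTyr fall of Rab15 was 0.26 after removal and did not pass (limma, adjusted p = 0.0547), but passed with the animal as a block added (adjusted p = 0.00726). Rab4a had -0.21 ± 0.10 in hTyr animals (adjusted p = 0.0769, and 0.0349 with the block), which with the removal added to the block was -0.11 and did not pass (limma, adjusted p = 0.164). Rab8b had 0.25 ± 0.12 in hTyr animals (adjusted p = 0.101, and 0.0482 with the block). After removal Rab8b had -0.23 there (limma, adjusted p = 0.0547), and with the block added it passed as a fall (adjusted p = 0.0219). In EYFP animals Rab8b had -0.07, and passed as a fall after removal with -0.39 (limma, adjusted p = 0.000246).

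Late endosome, lysosome and autophagy genes were 5, of which Rab9 and Rab9b rose and Rab12 fell in both treatments. Rab9, which returns receptors from late endosomes to the Golgi, rose by 0.44 ± 0.08 and 0.56 ± 0.09 (0.39 and 0.51 after removal), and Rab9b by 0.42 ± 0.11 and 0.70 ± 0.11. After removal Rab9b had 0.15 in EYFP animals, which did not pass (limma, adjusted p = 0.136, and 0.0327 with the block), and 0.30 in hTyr animals, which did. Rab7, the main Rab of late endosomes, had -0.10 ± 0.06 and 0.01 ± 0.08, and Rab24 had values within 0.06 of 0. Both cilium and photoreceptor genes fell in EYFP animals: Rab28 by 0.39 ± 0.08 and Rab23, a brake on Hedgehog signalling, by 0.26 ± 0.06. Rab28 also fell in hTyr animals, by 0.42 ± 0.08, and by 0.67 and 0.78 after removal. Of the 3 remaining genes, Rab42 fell in EYFP animals by 0.47 ± 0.13, with 70 to 157 reads per library there, and Rab40c had -0.27 ± 0.12 (adjusted p = 0.0524, and 0.00733 with the block). With the removal added to the block the EYFP value of Rab40c was -0.17 and did not pass (limma, adjusted p = 0.07). In hTyr animals Rab40c fell by 0.37 ± 0.09, and had -0.21 after removal. Rab40b did not pass.

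Of the 5 LRRK2 substrates named at the start, Rab12 and Rab35 fell in both treatments, Rab8a fell in EYFP animals alone, and none passed as higher. Other members, among them Rab3b and Rab3c, which rose in both treatments, were not sorted by whether LRRK2 acts on them. These 5 genes therefore do not show how LRRK2 substrates moved as a group. Rab12 fell by 0.29 ± 0.06 and 0.21 ± 0.07 and Rab35, which directs recycling from endosomes, by 0.30 ± 0.07 and 0.28 ± 0.08. The hTyr call of Rab12 was lost without hTyr animal 2, 3 or 4, and that of Rab35 after removal (-0.13, limma, adjusted p = 0.174). Rab8a fell in EYFP animals alone, by 0.16 ± 0.06, a call lost after removal (-0.11, adjusted p = 0.107) and without any one of EYFP animals 1, 3, 4, 5 and 6. Rab10 had -0.0017 and 0.14 ± 0.08 and passed as a fall in EYFP animals only after removal (-0.13, adjusted p = 0.0254). Rab29, which can recruit LRRK2 to membranes, had -0.02 ± 0.13 and -0.20 ± 0.18 on 59 reads or more per library.

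Transcripts that rose were poorer in G and C. The median GC content was 41.9% for the 12 members higher in both treatments, 49.4% for the 11 lower in both, 49.0% for all members and 50.0% for all genes. Across members, Spearman's rho between GC content and the IP change was -0.40 in EYFP animals and -0.56 in hTyr animals, beside -0.34 and -0.44 across all genes with a value. These are descriptions across genes of the same libraries.

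Closely related Rab genes were then set against each other within each animal, which removes what the 2 libraries of an animal share. These tests were added after the values had been seen. In 12 subfamilies, 19 pairs were compared by the difference in their IP minus input changes over the 11 animals. The test was an exact two-sided sign-flip permutation test over 2048 sign assignments, whose smallest p is 0.000977, adjusted by Benjamini-Hochberg over the 19 pairs. Of these pairs, 15 passed, 16 passed after removal, and 12 passed both ways with the same sign. No other pairs of genes were compared in this way. With 56.5% and 54.4% of all genes called between IP and input, the count of pairs shows nothing particular to Rab genes. In 10 pairs the difference had the same sign in every animal. Pairs of a subfamily share genes and are not independent, and how reads matching both genes of a pair were counted is not given in the sources used here.

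Here a gene exceeds another in its IP minus input change, not in its level. Rab5a exceeded Rab5b by 0.92 ± 0.23 (log2, SD, n = 11) and by at least 0.66 in every animal (exact permutation, adjusted p = 0.00186), and by 0.85 after removal. Their transcripts have similar GC contents, 46.7% and 49.1%. Rab11a exceeded Rab11b by 0.87 ± 0.27, between 0.49 and 1.21, and by 0.59 after removal. Rab11b had 8.11, 8.31 and 8.45 (lowest, median, highest) in EYFP input and 7.92, 8.0 and 8.17 in EYFP IP, and fell by 0.28 ± 0.07. In hTyr animals Rab11b had 8.46, 8.51, 8.26, 8.22 and 8.29 in input and 8.11, 8.12, 8.01, 7.76 and 8.05 in IP, and fell by 0.34 ± 0.09. As the promoters above show, Rab11a and Rab11b also differ in the Sp1 boxes of their windows, 3 against none. The other pair shown goes the other way, with 1 box for Rab5a and 2 for Rab5b. A link between these boxes and the IP changes was not tested.

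The further differences are also in the IP minus input change, not in level. Rab6a exceeded Rab6b by 0.60 and Rab2a exceeded Rab2b by 0.43, in 11 of 11 animals each, and by 0.31 and 0.46 after removal. Rab3b exceeded Rab3a by 0.64 in 11 of 11 animals, and by 0.57 after removal. Rab33a, an X-linked Golgi Rab, exceeded Rab33b by 0.39 in 10 of 11 animals, and by 0.57 after removal. Rab1a exceeded Rab1b by 0.55 in 11 of 11 animals, which shrank to 0.14 after removal and still passed. Other differences vanished or turned after removal. Rab27b exceeded Rab27a by 0.53 in 11 of 11 animals, and after removal Rab27a minus Rab27b was -0.01 (exact permutation, adjusted p = 0.879). Rab3c exceeded Rab3a by 0.51, and after removal Rab3a minus Rab3c was -0.04 (exact permutation, adjusted p = 0.491). Rab8a lay 0.20 below Rab8b, and after removal 0.23 above it (exact permutation, adjusted p = 0.00571). Rab9 and Rab9b, Rab4a and Rab4b, Rab3b and Rab3c, and Rab40b and Rab40c did not pass, and the first 3 of these pairs passed after removal.

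**Figure D4:**
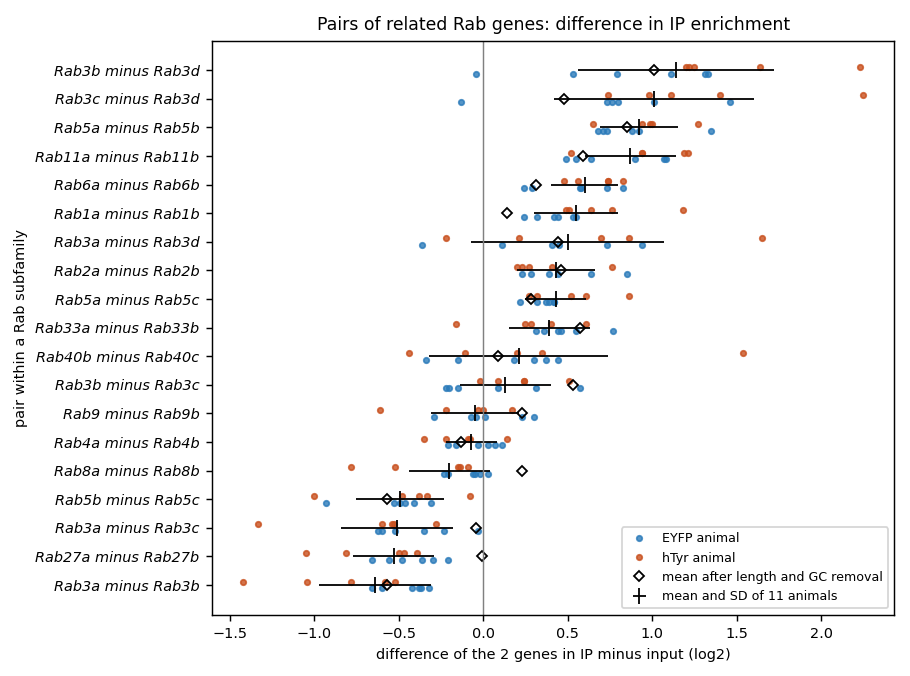
Difference between 2 related Rab genes in their IP minus input change on the log2 scale (x axis) for 19 pairs (rows), with points for the 6 EYFP and 5 hTyr animals, black bars for the mean and SD of 11 animals and open diamonds for the mean after the length and GC trend was removed. Rab5a minus Rab5b stays near its mean of 0.92 after removal, while Rab27a minus Rab27b and Rab3a minus Rab3c move close to 0.

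hTyr against EYFP asks whether Rab RNAs differed between the infused groups. In IP, no Rab gene passed: limma called 0 of 50 members, beside 0.0556% of all genes, and voom on the recovered reads also called 0. At an unadjusted p under 0.05 there were 3 members (Rab1a, Rab2b and Rab3b), or 6.00% of members beside 6.19% of all genes. After removal only Rab3b was left among them, beside 6.06% of all genes. Changes lay between -0.38 and 0.38 on the log2 scale with standard errors of 0.07 to 0.25, and no member had groups without overlap, beside 0.651% of all genes. In input, limma and voom called 0 of 50, beside 0.00794% of all genes, with changes between -0.25 and 0.19 and 1 member, Rab34, at an unadjusted p under 0.05 (3.03% of all genes). After removal no member was left there, beside 3.21% of all genes. In these bulk libraries, fewer cells of a type and less RNA per cell cannot be told apart.

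Rab3b had the highest change in IP. With the values given above, its IP mean was 6.49 in hTyr animals and 6.10 in EYFP animals, and the groups overlapped. The difference was 0.38 ± 0.17 (limma, unadjusted p = 0.0421, adjusted p = 0.795), against 0.04 ± 0.11 in input. Rab1a had 0.20 ± 0.08 in IP (unadjusted p = 0.0239, adjusted p = 0.776), the smallest p of the members, and -0.05 ± 0.08 in input. Rab2b, a Golgi Rab, had EYFP IP values of 5.22, 5.49 and 5.55 (lowest, median, highest) and hTyr IP values of 5.89, 5.83, 5.70, 5.50 and 5.51, a difference of 0.22 ± 0.09 (adjusted p = 0.787). Rab39b had 0.19 ± 0.09 (adjusted p = 0.803). Rab3d was at the other end with -0.38 ± 0.24 (adjusted p = 0.852).

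Among the genes tied to pigment granules, Rab27a and Rab27b did not stand out, and Rab32 and Rab38 were not in the deposited table. Rab27a differed between hTyr and EYFP by 0.05 ± 0.11 in IP and by -0.07 ± 0.10 in input, and Rab27b by 0.22 ± 0.12 and -0.11 ± 0.11 (limma, adjusted p at least 0.825). In input Rab34 had 4.02, 4.11 and 4.19 (lowest, median, highest) in EYFP and 4.37, 4.24, 4.32, 4.29 and 4.16 in hTyr animals, a difference of 0.17 ± 0.07 (adjusted p = 0.99). Rab3c had -0.25 ± 0.12, Rab24 0.12 ± 0.07 and Rab8b -0.17 ± 0.11 there, with the same adjusted p. Among the LRRK2 substrates named at the start, the IP difference was 0.10 ± 0.08 for Rab8a, 0.08 ± 0.07 for Rab10, 0.11 ± 0.08 for Rab12, 0.04 ± 0.09 for Rab35 and -0.11 ± 0.17 for Rab29. No member differed by more than 0.5 in either fraction. Across members, Spearman's rho between GC content and the treatment change was -0.47 in IP and 0.51 in input, beside -0.26 and 0.41 across all genes.

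**Figure D5:**
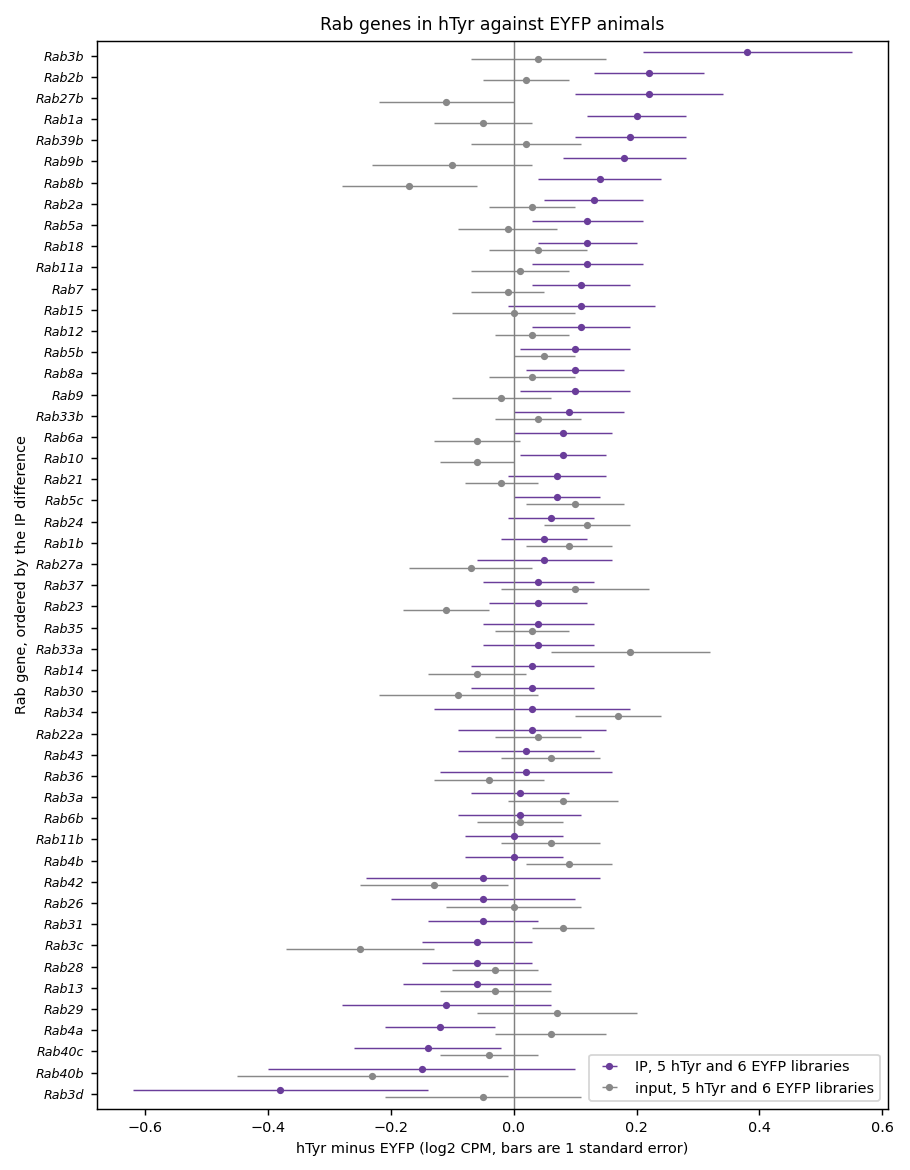
Difference between hTyr and EYFP animals in log2 CPM with 1 standard error (x axis) for each of the 50 Rab genes (rows, ordered by the IP difference), in IP (purple) and in input (grey), from 5 hTyr and 6 EYFP libraries in each fraction. Values in IP run from -0.38 for Rab3d to 0.38 for Rab3b, and none passed the threshold.

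The difference of the hTyr effect between IP and input was tested over all 22 libraries. Limma and voom called 0 of 50 members, beside 0.00794% of all genes, and with the animal as a block 0 of 50, beside 0.0397%. At an unadjusted p under 0.05 there were 3 members, beside 3.31% of all genes. Rab1a had 0.26 ± 0.11 (limma, unadjusted p = 0.0276), Rab8b had 0.31 ± 0.14 (limma, unadjusted p = 0.0404) and Rab27b had 0.33 ± 0.16 (limma, unadjusted p = 0.0498). Their limma adjusted p was 0.996. After removal Rab1a had 0.16, Rab8b 0.17 and Rab27b 0.14, and no member was at an unadjusted p under 0.05, beside 2.96% of all genes. Rab8b had hTyr input values of 4.69, 5.16, 5.06, 5.32 and 5.34 and hTyr IP values of 5.40, 5.38, 5.07, 5.48 and 5.47, with the widest step in hTyr animal 1. With the block 5 members were at an unadjusted p under 0.05, beside 6.94% of all genes, the lowest adjusted p being 0.699. Rab2b had 0.20 ± 0.11 (limma, unadjusted p = 0.09). For Rab3b the difference was 0.34 ± 0.22 in the main fit, which does not pair the libraries of an animal (limma, unadjusted p = 0.143). With the block it was 0.34 ± 0.12 (limma, unadjusted p = 0.0128, adjusted p = 0.699), and no member passed. The rises of Rab1a, Rab3b and Rab27b were thus not shown to differ between treatments.

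The proteins that act on Rabs were followed in 7 lists written from general knowledge, of which 138 of 158 genes were in the table. In EYFP animals 48 were higher and 37 lower in IP, and in hTyr animals 47 higher and 39 lower, with medians of 0.01 and 0.00. Among all genes 28.5% were higher and 28.1% lower in EYFP animals, and 27.4% and 27.0% in hTyr animals. The counts of each list below stand beside these shares, and no list was tested as a set. Of 12 genes of prenylation and membrane cycling, 7 rose and 1 fell in EYFP animals, and 8 and 2 in hTyr animals. The risers include both Rab escort proteins, Chm (0.96 ± 0.15 in EYFP and 1.33 ± 0.14 in hTyr animals) and Chml (0.95 ± 0.14 and 1.10 ± 0.14). After removal Chm had 0.48 and 0.67, and Chml 0.58 in each treatment. Rabif, which binds Rabs emptied of nucleotide, fell by 0.47 ± 0.08 and 0.45 ± 0.12. Of 14 TRAPP subunits, which load Rab1 proteins with GTP, 7 rose and 2 fell in EYFP animals, and 5 and 2 in hTyr animals. Trappc8 had the highest change, 1.20 ± 0.14 and 1.44 ± 0.13, and 0.95 and 1.06 after removal.

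Among 34 other exchange factors 6 rose and 14 fell in EYFP animals, and 7 and 17 in hTyr animals. Madd, which activates Rab3 proteins, rose by 0.69 ± 0.09 in EYFP animals, and Dennd5b by 0.64 ± 0.10 (0.88 and 0.40 after removal). Rgp1, part of an exchange factor for Rab6a, fell by 0.73 ± 0.11 and 0.97 ± 0.12, and had -0.50 and -0.66 after removal. Hps1 and Hps4, which together activate the Rabs of pigment granules, fell as well, Hps1 by 0.55 ± 0.14 in EYFP animals and Hps4 by 0.73 ± 0.19 in hTyr animals (-0.34 and -0.51 after removal).

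GTPase-activating proteins numbered 37, with 15 higher and 11 lower in EYFP animals, and 16 and 9 in hTyr animals. Tbc1d15, which acts on Rab7, rose by 1.04 ± 0.11 and 1.45 ± 0.13, and Tbc1d16 fell by 0.48 ± 0.09 and 0.63 ± 0.11. After removal Tbc1d15 had 0.72 and 0.99, and Tbc1d16 -0.21 and -0.28. Of 34 effectors, 12 rose and 8 fell in EYFP animals, and 10 and 8 in hTyr animals. Myo5a, the motor myosin Va, rose by 1.08 ± 0.13 and 1.22 ± 0.10, and Appl1, which binds Rab5 on endosomes, by 0.91 ± 0.10 and 1.07 ± 0.11. Micall1, a scaffold of recycling endosomes, fell by 0.91 ± 0.09 and 1.02 ± 0.10, and Rab11fip4, a Rab11 partner, by 0.59 ± 0.08 and 0.73 ± 0.10. After removal Myo5a had 0.94 and 1.01, Appl1 0.57 and 0.58, Micall1 -0.64 and -0.66, and Rab11fip4 -0.39 and -0.46. Lrrk2 rose by 0.82 ± 0.16 and 1.11 ± 0.15 (0.67 and 0.89 after removal), while 1 of 5 Rab-like genes, Rabl6, fell. In hTyr against EYFP, limma called 0 of the 138 genes in IP, in input and in the difference between them. Among all genes it called 0.0556%, 0.00794% and 0.00794%. At an unadjusted p under 0.05 there were 5, 2 and 5 genes of the lists, beside 6.19%, 3.03% and 3.31% of all genes.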

How the data were processed

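Ribosome-bound RNA (IP) and input RNA were sequenced from 11 mice, 22 libraries in all. The authors deposited one table of log2 values, which by its numbers are log2 CPM with a pseudocount averaging 2 reads. Whole reads were recovered from 100% of values (tolerance 0.05 reads) and sum to between 12654489 and 25100142 per library. Per the submitters' processing notes STAR, featureCounts and mm10 were used, with no versions given. The filter and normalization are not given in the sources used here. Reads carry no molecular identifiers, so read numbers bear on counting error only.

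The test was limma 3.58.1 under R 4.3.3, run on these values (lmFit, eBayes with a trend). All 12596 genes entered each fit, p-values were Benjamini-Hochberg adjusted, and the threshold was 0.05. The scripts were tested on simulated data. Exon lengths and GC contents came from GENCODE M21 by symbol (98.3% of genes). The length and GC trend of each library was removed by loess with a span of 0.4. Tables and figures were made with Python 3.11.15.

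IP and input libraries share numbers in their titles, and a shared number was taken to mean the same animal. The titles do not say what the number stands for. Deviations from the group means correlated at 0.279 to 0.626 between libraries of the same number, and each of 11 animals matched its own number best. The numbers therefore pair the libraries. The main fits treated the libraries of an animal as independent, while the fits with the animal as a block pair them. Whether the animals were processed in batches is not given in the sources used here.

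Members, lists and tests were chosen with earlier results of these data known. The members named by rule are the 6 with the largest rise and the 6 with the largest fall in IP against input of each treatment. Added to these are the 4 smallest p-values of each treatment comparison, genes linked to pigment granules or Parkinson disease, and the 5 highest and 5 lowest levels per kilobase. Values of single libraries are printed for only some of these members, and for Rab5a and Rab11b outside the rule. In each pathway list at most 2 genes per direction and comparison are named. Alternatives were other scalings, filters, pseudocounts, weights, covariates, voom, the block and leaving out each animal.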

Additional observations from a re-analysis of the deposited data

Results flagged for a closer look

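In groups of 5 or 6 libraries, a Rab gene was looked at again where its highest or lowest library stood far from the nearest other library, relative to the range of the group. For 33 named members, 132 groups were examined, 9 stood out, and chance gives about 6.6. In the hTyr IP group, Rab27b reached 5.74 log2 CPM in hTyr animal 1, with the next library at 5.35, and Rab30 reached 5.30 in hTyr animal 3, with the next at 4.94. Rab42 was low at 1.70 (60 reads) in hTyr animal 5, and Rab8b was low at 5.07 in hTyr animal 3. In the EYFP IP group, EYFP animal 4 was low for Rab2b at 5.22 and high for Rab30 at 5.24. Rab35 was low at 6.36 in EYFP animal 3, and Rab9b was low at 5.67 in EYFP animal 2. In EYFP input, Rab29 was low at 2.41 (114 reads) in EYFP animal 5.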

How the results depend on the processing

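The totals of Rab genes past the threshold in either direction stayed within 1.5 times of the reported ones under all alternatives run except these covariates. Within the total, higher calls in EYFP animals went from 14 to 9 with the length and GC trend removed. They went to 11 under median centring and under quantile normalization. With the noradrenergic score in the fit, 0 members passed in EYFP animals and 2 in hTyr animals, beside 0.0% and 8.3% of all genes. This score separates IP from input libraries without overlap, so the fit has little left to tell them apart. With total reads in the fit, 13 members passed in hTyr animals, beside 29.1% of all genes. There the IP libraries held 12654489 to 19043798 reads and the input libraries 18771136 to 25100142, nearly separate ranges. Leaving out 1 animal gave 27 to 33 members in EYFP animals and 22 to 27 in hTyr animals, 0 to 0 in the treatment comparisons and their difference, and 15 to 15 of the pairs. The replicate block, which pairs the libraries of an animal, gave 35 and 29 members and changed no calls other than those given beside the results.

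Directions turned for the values that follow, and where no construction is named the cause was not tested. With the length and GC trend removed, IP against input gave -0.17 in EYFP and -0.02 in hTyr animals for Rab27b, -0.05 and -0.02 for Rab39b, and in hTyr animals -0.07 for both Rab10 and Rab27a. With the replicate block added to this removal these values were the same. In hTyr against EYFP in input, the removal gave 0.01 for Rab27b and -0.01 for Rab35. For the pairs it gave 0.23 for Rab8a minus Rab8b and for Rab9 minus Rab9b. With the noradrenergic score in the fit, EYFP animals had IP against input values of -0.13 for Rab11a, 0.03 for Rab12, -0.25 for Rab14, 0.02 for Rab15, -0.74 for Rab27b, 0.01 for Rab31, -0.0087 for Rab39b, -0.45 for Rab3b and -0.26 for Rab9b, and hTyr animals -0.09 for Rab10, 0.43 for Rab29 and -0.85 for Rab3b. In hTyr against EYFP this score gave -0.0044 in IP and -0.0011 in input for Rab35, and total reads gave -0.02 and -0.01.

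Among members that passed in at least 1 of the fits with and without the block or removal, the removal also turned IP against input to -0.23 in hTyr animals for Rab8b and Rab18, to -0.35 there for Rab30, to 0.16 there for Rab1b, and in EYFP animals to -0.27 for Rab30 and -0.15 for Rab18. Rab27a in hTyr animals, IP against input, had -0.05 under median centring and under quantile normalization, -0.02 with sample weights and -0.09 with total reads. In EYFP animals sample weights gave 0.01 for Rab10 and for Rab29, and quantile normalization gave 0.0069 for Rab29. Leaving out 1 animal gave -0.02 to 0.02 for Rab10 and -0.05 to 0.03 for Rab29 in EYFP animals, IP against input, and -0.04 to 0.06 for Rab27a in hTyr animals. In hTyr against EYFP it gave -0.21 to 0.01 for Rab29 and -0.0021 to 0.08 for Rab35 in IP, and in input -0.03 to 0.13 for Rab29, -0.02 to 0.08 for Rab39b and -0.02 to 0.09 for Rab8a. The pair Rab9 minus Rab9b ranged from -0.09 to 0.0067. Members with few reads, such as Rab3d with 50 and Rab42 with 57 in their lowest library, are the least precise.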
